A study of Homo sapiens with 8 samples.

Results

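Interferon-stimulated effectors are the genes a cell switches on when type I or type III interferon binds its receptor: the receptor's kinases activate a transcription factor complex containing IRF9, which binds the interferon-stimulated response element (ISRE) in front of these genes. The 9 genes followed here were MX1 and MX2, RSAD2, IFI6 and IFI27, IFI44 and IFI44L, IFI35 and IFI16. MX1 and MX2 encode dynamin-like GTPases that block viruses, RSAD2 encodes viperin, a radical-SAM enzyme that makes a chain-terminating nucleotide, and IFI16 encodes a sensor of DNA. IFI6 and IFI27 encode small hydrophobic proteins of a common family, IFI44 and IFI44L are neighbouring paralogs, and IFI35 encodes a leucine-zipper protein induced by interferon. In cancer cells that lose DNA methylation such genes can be switched on without a virus, as by double-stranded RNA from reactivated repeats.

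The members were chosen by gene name, with their levels in these libraries already known, and all 9 were found among the 60605 gene identifiers of each table. They were measured by polyA RNA-seq in HCT116, a human colorectal cancer line, and in UF1hypo, a heterozygous UHRF1 knockout clone of HCT116 from which exon 4 of a UHRF1 allele had been removed. UHRF1 brings the maintenance methyltransferase DNMT1 to newly copied DNA. Both lines carried a stable lentiviral hairpin, either a scrambled control (shScr) or a hairpin against UHRF1 (shUHRF1), giving 4 groups of 2 libraries: HCT116 shScr, HCT116 shUHRF1, UF1hypo shScr and UF1hypo shUHRF1. UF1hypo is a single clone, so a difference between the lines cannot be told apart from a difference between clones, and nothing in the labels says that libraries of a group came from separate cultures. Their p-values therefore set a difference against the spread between these libraries, which may be technical. In the main fit that spread was estimated over all 4 groups, so a p-value for HCT116 also carries the spread of the UF1hypo libraries.

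Values are TPM, a level scaled for transcript length and library size, which lets levels be compared between genes. The libraries held 5.42 to 7.84 gigabases of aligned sequence. UHRF1 itself stood at 87.5 and 98.4 TPM in HCT116 shScr, at 31.7 and 32.7 TPM in HCT116 shUHRF1, at 47.3 and 50.6 TPM in UF1hypo shScr, and at 34.1 and 21.1 TPM in UF1hypo shUHRF1. In both lines each shUHRF1 library thus lay below every shScr library, with log2 differences of -1.50 (limma adjusted p = 0.0564) in HCT116 and -0.84 (limma adjusted p = 0.0406) in UF1hypo, neither of which passed both thresholds for a call. All 6 epithelial markers checked (EPCAM, KRT8, KRT18, KRT19, CDH1 and CLDN4) lay above 1 TPM on average in every group. Their summed level was 4547 to 4591 TPM in HCT116 shScr, 5707 to 5822 TPM in HCT116 shUHRF1, 9225 to 9582 TPM in UF1hypo shScr and 10217 to 13253 TPM in UF1hypo shUHRF1, while EPCAM, at 363 and 372 TPM in HCT116 shScr, was at 174 and 314 TPM in UF1hypo shUHRF1. The part of this shift in the members' differences was not tested. Of 12 leukocyte and blood markers found, PTPRC, the pan-leukocyte marker, was listed at 0 in 6 libraries and at 0.0561 and 0.0728 TPM in UF1hypo shUHRF1, and FCGR3A was listed at 0 throughout. Counted by group, 5, 7 and 6 of the 12 were listed at 0 in both libraries of HCT116 shScr, HCT116 shUHRF1 and UF1hypo shScr, and 1 in UF1hypo shUHRF1, where ITGAM reached 1.21 and 0.971 TPM and LILRA4 0.989 and 0.464 TPM. The summed leukocyte list moved with the groups, from 14.5 to 16.2 TPM in HCT116 shScr and 8.32 to 8.50 TPM in HCT116 shUHRF1 to 41.1 to 43.7 TPM in UF1hypo shScr and 80.5 to 112 TPM in UF1hypo shUHRF1. CD68, a lysosomal membrane protein, made up 75.4% to 86.0% of that sum in the HCT116 libraries and 95.1% to 98.6% in the UF1hypo libraries. Without CD68 the other 11 summed to 2.22 and 2.50 TPM in HCT116 shScr, 2.05 and 1.19 TPM in HCT116 shUHRF1, 0.559 and 1.02 TPM in UF1hypo shScr and 5.45 and 2.87 TPM in UF1hypo shUHRF1, and their part in the members' differences was not tested. In these bulk libraries, fewer cells making an RNA and less RNA per cell cannot be told apart.

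The sequences in front of the genes are shown because the members differed in how much of their level was present in UF1hypo shScr, and because the study is about DNA methylation, which acts on CpG dinucleotides. Windows of 300 bases, from 250 before to 50 after an annotated start, came from RefSeq (GRCh38.p14), and 8 of the 9 members had one. MX2 had no entry. For each gene the window at the start of the canonical transcript was taken. The ISRE core was searched as GAAANNGAAA on both strands, so that it reads TTTCNNTTTC on the reverse strand. Capitals mark its matches. The windows of IFI6 and IFI27, which were at the highest levels in UF1hypo shScr, of MX1, which stood lowest there relative to UF1hypo shUHRF1, and of the neighbours IFI44 and IFI44L were as follows.
IFI6, chr1:27672143-27672442, minus strand: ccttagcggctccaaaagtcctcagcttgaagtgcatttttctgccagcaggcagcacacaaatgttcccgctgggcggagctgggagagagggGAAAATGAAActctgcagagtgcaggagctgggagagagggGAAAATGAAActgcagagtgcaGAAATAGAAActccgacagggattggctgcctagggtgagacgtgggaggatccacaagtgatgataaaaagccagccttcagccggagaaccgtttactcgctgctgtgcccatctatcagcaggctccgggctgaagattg
IFI27, chr14:94110565-94110864, plus strand: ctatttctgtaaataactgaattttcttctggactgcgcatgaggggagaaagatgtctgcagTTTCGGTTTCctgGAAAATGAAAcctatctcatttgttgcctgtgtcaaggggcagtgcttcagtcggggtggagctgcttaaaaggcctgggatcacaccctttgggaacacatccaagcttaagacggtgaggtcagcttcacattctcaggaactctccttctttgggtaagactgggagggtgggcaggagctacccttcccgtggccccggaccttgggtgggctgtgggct
MX1, chr21:41425989-41426288, plus strand: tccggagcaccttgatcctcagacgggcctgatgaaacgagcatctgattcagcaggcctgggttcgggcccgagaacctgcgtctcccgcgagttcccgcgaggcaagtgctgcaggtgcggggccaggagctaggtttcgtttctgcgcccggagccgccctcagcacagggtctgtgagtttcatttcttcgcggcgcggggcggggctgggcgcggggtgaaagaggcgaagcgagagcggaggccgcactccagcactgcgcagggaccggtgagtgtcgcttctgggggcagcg
IFI44, chr1:78649581-78649880, plus strand: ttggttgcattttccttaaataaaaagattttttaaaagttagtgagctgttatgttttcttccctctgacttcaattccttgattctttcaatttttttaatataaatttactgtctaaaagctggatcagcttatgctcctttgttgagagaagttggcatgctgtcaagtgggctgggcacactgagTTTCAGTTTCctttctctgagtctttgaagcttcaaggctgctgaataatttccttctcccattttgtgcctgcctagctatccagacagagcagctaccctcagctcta
IFI44L, chr1:78620198-78620497, plus strand: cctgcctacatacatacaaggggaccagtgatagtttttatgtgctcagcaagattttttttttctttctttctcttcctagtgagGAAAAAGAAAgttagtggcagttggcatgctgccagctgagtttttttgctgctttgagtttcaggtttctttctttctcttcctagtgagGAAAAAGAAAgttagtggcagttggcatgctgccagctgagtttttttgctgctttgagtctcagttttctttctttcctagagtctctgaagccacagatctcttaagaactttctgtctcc

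An ISRE core lay in 5 of the 8 windows, against 3.57% of all 35116 windows of the same length. IFI6 held 3 matches, beginning 156, 115 and 93 bases before the start, and the first pair lay in a stretch of 29 bases that occurs in 2 copies, beginning 173 and 132 bases before the start. IFI27 held 2 matches, 187 and 174 bases before the start on opposite strands, and the one farther from the start contained a CpG. The IFI6 and IFI27 windows shared the run ggaaaatgaaac. IFI44L held 2 matches, at 164 and 73 bases before the start, each inside a copy of a repeated stretch of 85 bases. IFI44 held 1 match, 60 bases before the start, and shared with IFI44L the run agttggcatgctg. RSAD2 held 1 match, 145 bases before the start. The windows of MX1, IFI35 and IFI16 did not hold these letters, although other annotated MX1 starts did: the windows at chr21:41420308-41420607 and chr21:41431800-41432099 held 1 each. Only this exact spelling was searched, so a window without a match may still hold a variant of the element. The gamma-activated site motif TTCNNNGAA, which reads the same on both strands, lay in the windows of IFI27 and IFI35 and in 7.66% of all windows.

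MX1 had the most CpG of the 8 windows. It held 30, where the median of all windows was 14 and the upper quartile 28. The other 7 held fewer than the median: 9 in IFI6, 8 in IFI35, 6 in IFI27, 4 in RSAD2, 3 in IFI16 and 0 in both IFI44 and IFI44L. RSAD2 has a further annotated start, at chr2:6865635-6865934, whose window held 45 CpG. The windows at the other annotated MX1 starts, which held an ISRE core, had 20 and 6 CpG. No methylation value was used here.

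The genes lie on 5 chromosomes (GRCh38, GENCODE gene bounds). MX2 (chr21:41361999-41409393, 14 exons) and MX1 (chr21:41420020-41470071, 17 exons) are adjacent on chromosome 21, and IFI44L (chr1:78619902-78646145, 9 exons) and IFI44 (chr1:78649796-78664078, 9 exons) on chromosome 1. Also on chromosome 1 are IFI6 (chr1:27666064-27672212, 5 exons) and IFI16 (chr1:158999968-159055155, 12 exons). IFI27 is at chr14:94104836-94116698 (5 exons), IFI35 at chr17:43006740-43014456 (7 exons) and RSAD2 at chr2:6865557-6898239 (6 exons).

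In control HCT116 cells 6 of the 9 effectors were under 1 TPM. MX2, IFI44L and RSAD2 were listed at 0 TPM in both HCT116 shScr libraries. IFI16 was listed at 0 and 0.0774 TPM, MX1 at 0.308 and 0.435 TPM, and IFI44 at 0.0763 and 0.237 TPM. Only IFI35, IFI6 and IFI27 exceeded 1 TPM there. IFI35 stood at 24.2 and 29.5 TPM, IFI6 at 16.2 and 19.3 TPM, and IFI27 at 4.90 and 2.55 TPM. The library values of these 3 genes did not overlap, so that IFI35 led in control HCT116, whereas IFI6 led in each of the other 3 groups.

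The first comparison set the UHRF1 heterozygous clone against its parental line without knockdown, UF1hypo shScr against HCT116 shScr. The choice of members used this comparison, and its values are given as a description with no test. Of all 12856 genes tested in it, 2.59% were called higher, at an adjusted p-value below 0.05 and a log2 fold change above 1. For every member, both UF1hypo shScr libraries lay above both HCT116 shScr libraries. This ordering is looser than a call, and how many of all genes showed it was not counted. A log2 difference below is between group means of log2(TPM + 1), with its standard error (SE) from the limma fit and n = 2 libraries a group.

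On log2(TPM + 1) the hydrophobic-protein genes IFI27 and IFI6 had the largest differences among the members. IFI27 reached 1098 and 1196 TPM in UF1hypo shScr, a log2 difference of 7.97 that ranked 1 of 12856 genes. IFI6 reached 1721 and 1698 TPM, a log2 difference of 6.52 that ranked 3. In TPM their group means were 308-fold and 96.4-fold those of HCT116 shScr. IFI44, from under 1 TPM in HCT116 shScr, was 182-fold. On coverage per gigabase, with 1 added there too, the log2 differences were 5.74 for IFI27 and 6.41 for IFI6. The added 1 weighed most on IFI27, whose mean coverage went from 0.428 in HCT116 shScr to 75.1 in UF1hypo shScr. For IFI6 those means were 6.88 and 665. IFI6 and IFI27 made up 94.4% to 94.9% of the summed TPM of the members in UF1hypo shScr.

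IFI44 followed on log2(TPM + 1), with 28.3 and 28.7 TPM in UF1hypo shScr and a log2 difference of 4.68, rank 7. With pseudocount 0.1 its log2 difference was 6.88, above the 6.59 of IFI6. The neighbour of IFI44, IFI44L, did not keep pace, at 0.539 and 0.899 TPM and a log2 difference of 0.77. IFI44 was 52.5 and 32.0 times IFI44L in TPM in these libraries, although the genes lie side by side in the same orientation.

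The MX genes and viperin were detected at low levels. MX2 stood at 5.63 and 6.56 TPM, a log2 difference of 2.82. MX1 stood at 4.22 and 4.49 TPM, a log2 difference of 1.96, so that MX2 exceeded MX1 in both libraries. RSAD2 stood at 1.86 and 1.72 TPM, a log2 difference of 1.48.

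IFI35, which started from a higher level, stood at 111 and 128 TPM, 4.44-fold in group means and a log2 difference of 2.11. The DNA sensor IFI16 stood at 1.27 and 1.23 TPM, a log2 difference of 1.12. A member was counted as already raised when its UF1hypo shScr libraries lay above both HCT116 shScr libraries and its log2 difference was above 1: by this rule, on log2(TPM + 1), 8 of 9 were already raised, IFI16 lay just inside the threshold, and IFI44L, just outside it, was the 1 member that waited for the hairpin. The added 1 weighs most on low genes, and the count depended on the scale and on GC correction. It was 9 with pseudocount 0.1 (IFI44L at 2.998) and after GC correction (IFI44L at 1.09). On FPKM it was 6, with IFI16 and RSAD2 under the threshold, and on coverage per gigabase 4, with MX1 and MX2 under it too. The 1 was added on those units as well, and mean coverage per gigabase in UF1hypo shScr was only 0.344 for MX1 and 0.464 for MX2. How many of all genes met the rule for already raised was not counted. In UF1hypo shScr the order of levels was IFI6, IFI27, IFI35, IFI44, MX2, MX1, RSAD2, IFI16 and IFI44L, and no neighbours in that order overlapped.

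**Figure D1:**
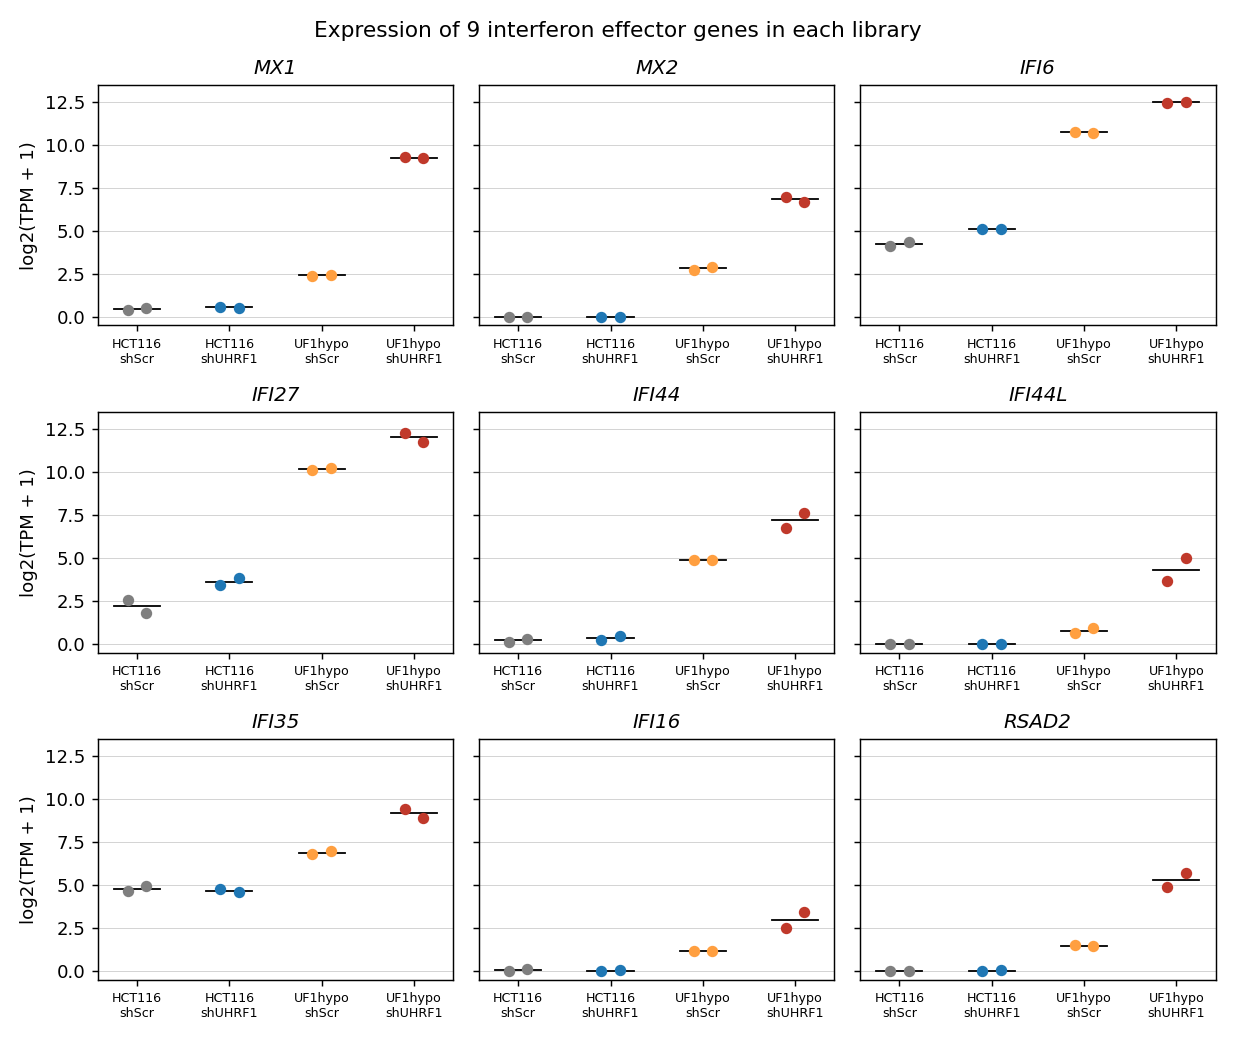
log2(TPM + 1) of the 9 members (y axis) in the 4 groups (x axis); each point is a library and each line the mean of the 2 libraries of a group. IFI6 and IFI27 already led in UF1hypo shScr, at 1698 to 1721 and 1098 to 1196 TPM, whereas MX1 went from 4.22 and 4.49 TPM there to 637 and 595 TPM in UF1hypo shUHRF1.

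The next comparison asked what further depletion of UHRF1 did in the clone, setting UF1hypo shUHRF1 against UF1hypo shScr. The choice of members used it as well, and it shares the UF1hypo shScr libraries with the previous comparison, so the values are again a description. Of 13620 genes tested, 7.39% were called higher. For all 9 members both shUHRF1 libraries lay above both shScr libraries, an ordering looser than a call that was not counted over all genes.

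MX1 showed the greatest difference among the members. It went to 637 and 595 TPM, 142-fold its UF1hypo shScr mean, with a log2 difference of 6.85 (SE 0.187) that ranked 2 of 13620 genes. MX2 went to 125 and 103 TPM, 18.7-fold, with a log2 difference of 4.02 (SE 0.203). The order of the GTPase genes thereby turned over: MX1 was 0.749 and 0.684 times MX2 in TPM in UF1hypo shScr and 5.10 and 5.77 times MX2 in UF1hypo shUHRF1.

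RSAD2 and IFI44L also started from low levels. RSAD2 stood at 28.4 and 52.2 TPM, 22.6-fold, with a log2 difference of 3.83 (SE 0.281). IFI44L stood at 11.8 and 30.7 TPM, 29.5-fold, with a log2 difference of 3.56 (SE 0.376). IFI44 reached 108 and 198 TPM, 5.36-fold, and its ratio to IFI44L narrowed to 9.16 and 6.45.

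The members that had led in UF1hypo shScr differed less. IFI27 went to 5057 and 3470.3 TPM, 3.72-fold, and IFI6 to 5555 and 5921 TPM, 3.36-fold. Their log2 differences were 1.87 (SE 0.276) and 1.75 (SE 0.135). IFI35 reached 684 and 490.3 TPM, 4.92-fold, and IFI16 4.66 and 10.04 TPM, 5.87-fold. The 9 members together took 1.22% and 1.09% of all TPM in UF1hypo shUHRF1, against 0.297% and 0.307% in UF1hypo shScr. In UF1hypo shUHRF1 the order was IFI6, IFI27, MX1, IFI35, IFI44, MX2, RSAD2, IFI44L and IFI16, and the libraries overlapped between MX1 and IFI35, between IFI44 and MX2, and between RSAD2 and IFI44L.

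**Figure D2:**
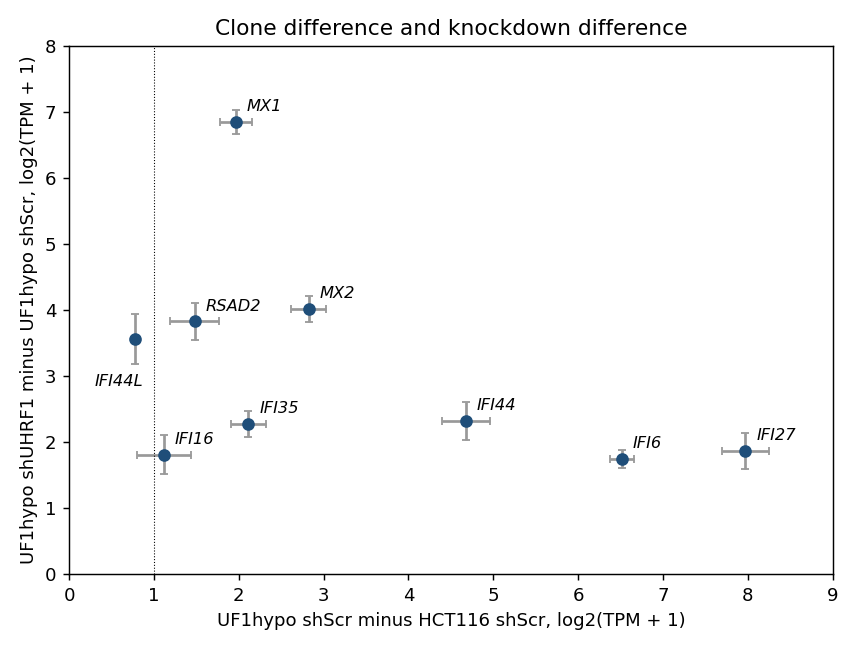
log2 difference of UF1hypo shScr from HCT116 shScr (x axis) against that of UF1hypo shUHRF1 from UF1hypo shScr (y axis) for the 9 members; bars are standard errors from the limma fit (none on the x axis for IFI44L, which was under 1 TPM there), and the dotted line marks a difference of 1. Both axes use the UF1hypo shScr libraries. MX1 lies at 1.96 and 6.85, and IFI27 at 7.97 and 1.87.

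Because a difference on the log2(TPM + 1) scale understates low genes, the level in UF1hypo shScr was also set as a percentage of the level in UF1hypo shUHRF1, a measure without a pseudocount that was chosen after the values had been seen. It fell into 2 ranges. MX1 had 0.706% of its final level, IFI44L 3.39%, RSAD2 4.43% and MX2 5.34%. IFI16 had 17.03%, IFI44 18.7%, IFI35 20.3%, IFI27 26.9% and IFI6 29.8%. Taking libraries in all pairings, the first 4 genes reached at most 7.61% and the other 5 were at least 12.3%. The order of the 9 genes was the same on TPM, FPKM and coverage per gigabase, although IFI16 fell to 11.7% on coverage. Among the 31 other interferon effectors listed below the same percentage ran from 0.428% for RTP4 to 135% for DDX60L with a median of 26.3%, and 5 of them lay under 6% (RTP4, OAS2, XAF1, GBP1 and BST2), 7 between 6% and 17%, and 19 above 17%.

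The UF1hypo shUHRF1 libraries differed from each other for some members, in step with base composition. The second library was 2.60 times the first for IFI44L, 2.15 times for IFI16, 1.84 times for RSAD2 and 1.83 times for IFI44, whose canonical transcripts hold 37.7% to 41.6% GC. For the other 5, with 49.3% to 58.8% GC, the ratio ran from 0.686 for IFI27 to 1.07 for IFI6. Across 13781 genes the same difference had a Spearman correlation of -0.814 with transcript GC in UF1hypo shUHRF1, against 0.508 in UF1hypo shScr and 0.0417 and 0.0680 in the HCT116 groups, described over genes, which are not independent. The spread of IFI44L, IFI16, RSAD2 and IFI44 within UF1hypo shUHRF1 therefore moved with GC, and its part in their differences was not tested. A GC-corrected fit, chosen after seeing the data, gave member log2 differences from 1.53 for IFI6 to 6.71 for MX1. Because the choice of members used this comparison, that they stayed above 0 is no check on the part of GC.

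Knockdown in parental HCT116 was the comparison that the choice of members did not use, and their tests are given in it, although it shares the HCT116 shScr libraries with the clone comparison. Neither MX2 nor IFI44L was detected in HCT116 shUHRF1, both being listed at 0 in each library. MX1 stood at 0.517 and 0.435 TPM, IFI44 at 0.161 and 0.355 TPM, RSAD2 at 0.0184 and 0.0357 TPM, and IFI16 at 0 and 0.0418 TPM. These 6 genes stayed under 1 TPM in all 4 libraries, below the filter for the test, and their levels are given without one.

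IFI6, IFI27 and IFI35 were tested, and 0 of 3 were called by limma, where 0.0472% of 12704 genes were called higher. IFI27 was at 9.81 and 13.3 TPM in HCT116 shUHRF1, above both control libraries, with a log2 difference of 1.44 (SE 0.274, limma adjusted p = 0.121). On coverage per gigabase, again with 1 added, the log2 difference of IFI27 was 0.44. That value understates the difference, because the added 1 was larger than either group mean of IFI27 coverage. Those means were 0.428 for HCT116 shScr, against 0.940 for HCT116 shUHRF1. IFI6 was at 33.5 and 34.1 TPM, also above both controls, with a log2 difference of 0.90 (SE 0.139, limma adjusted p = 0.0618). IFI35 was at 26.5 and 23.4 TPM, overlapping its controls, with a log2 difference of -0.10 (SE 0.201, limma adjusted p = 1.00). Before adjustment 2 of the 3 had p below 0.05, as did 6.38% of all genes tested. With limma on the 4 HCT116 libraries alone IFI27 was called (adjusted p = 0.0107), as it was after GC correction (adjusted p = 0.0135), and over all 13 alternatives its adjusted p ran from 0.0107 to 0.942. IFI6 passed 0.05 in the fit on 4 libraries (limma adjusted p = 0.00388), after GC correction (0.0161) and with pseudocount 0.1 (0.0472), each time with a log2 difference under the threshold of 1, and its adjusted p ran from 0.00388 to 0.757 over 13 alternatives.

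UHRF1 RNA and member levels can be set side by side across the lines. HCT116 shUHRF1 held 31.7 and 32.7 TPM of UHRF1, less than the 47.3 and 50.6 TPM of UF1hypo shScr, and IFI6 was at 33.5 and 34.1 TPM in the former and at 1721 and 1698 TPM in the latter. IFI27 likewise was at 9.81 and 13.3 TPM against 1098 and 1196 TPM. Whether the hairpin's effect differed between the lines was not tested for these genes, and protein levels of UHRF1 were not analysed here. The TPM of UHRF1 in UF1hypo does not separate intact RNA from any RNA of the allele that lacks exon 4, so it is no measure of UHRF1 protein.

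The rest of the interferon pathway was followed through 64 genes, listed by role with earlier results of these data known. In UF1hypo shScr against HCT116 shScr, 51 exceeded 1 TPM in a library, of which 31 rose and 0 fell by limma (0 fell at an unadjusted p below 0.05), where 2.59% of all genes tested were called higher. Their median log2 difference was 1.72 against -0.05 over all genes tested. Between UF1hypo shUHRF1 and UF1hypo shScr, 33 of 58 rose and 0 fell by limma (1, STING1, fell at an unadjusted p below 0.05), against 7.39% of all genes called higher, with a median of 1.37 against 0.04. A gene that passes the filter through the higher group alone is bound to differ. Of the 31 and the 33, 7 each were under 1 TPM in every library of the baseline group: CMPK2, EPSTI1, IFIT2, IFIT3, OAS1, TRIM22 and XAF1 in the clone comparison, and GBP1, RTP4, SAMD9L and 4 ligands in the UF1hypo knockdown. Among genes above 1 TPM in a baseline library, 24 of 42 rose in the clone comparison, against 2.16% of all such genes, and 26 of 51 in the UF1hypo knockdown, against 4.48%. In the HCT116 knockdown 0 of 47 passed the limma test in either direction, where 0.0472% of all genes were called higher, 3 had an unadjusted p below 0.05 (6.38% of all genes did), and the median was 0.10 against -0.03.

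Among ligands, none of 9 exceeded 1 TPM in the clone comparison. In the UF1hypo knockdown 4 entered the test and rose, but all 4 were under 1 TPM in both UF1hypo shScr libraries and passed the filter through the shUHRF1 libraries, so that count is set by the filter and only their levels are of use. IFNL1, a type III interferon, was at 0.627 and 0 TPM in UF1hypo shScr and at 14.0 and 9.55 TPM in UF1hypo shUHRF1. IFNL3 and IFNL2, close copies whose reads may be shared between them, were at 10.3 and 4.65 TPM and at 4.76 and 1.88 TPM there. IFNE, an epithelial type I interferon, was at 1.56 and 5.54 TPM there and at 1.02 and 1.23 TPM in HCT116 shUHRF1. IFNB1 was at 0.385 and 0.107 TPM and IFNA2 was listed at 0 in every library. IFNL1, IFNL2 and IFNL3 exceeded 1 TPM in UF1hypo shUHRF1 and in no other group.

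The receptors and kinases did not pass the test: limma called 0 of 8 in each of the 3 comparisons. At an unadjusted p below 0.05 there were 1 in the clone comparison, 2 with knockdown in UF1hypo and 1 in the HCT116 knockdown, where 18.2%, 27.4% and 6.38% of all genes passed that level. Among transcription factors, IRF7, IRF9 and STAT2 rose in the clone comparison and again with knockdown in UF1hypo. IRF9, a DNA-binding subunit of the interferon-activated complex, went from 3.46 and 4.07 TPM in HCT116 shScr to 30.9 and 32.5 TPM in UF1hypo shScr and 109 and 106 TPM in UF1hypo shUHRF1. USP18, which damps receptor signalling, rose in both comparisons, and SOCS1 in the knockdown. Among 7 sensors and adaptors, RIGI, IFIH1, DHX58 and STING1 rose in the clone comparison. RIGI, IFIH1 and DHX58, which recognise or regulate the recognition of double-stranded RNA, rose again with knockdown in UF1hypo, whereas STING1, the adaptor of the DNA sensor CGAS, went from 28.8 and 34.6 to 17.4 and 13.7 TPM (log2 difference -0.99, just short of the threshold of 1). CGAS was listed at 0 in all libraries except 0.0748 TPM in an HCT116 shUHRF1 library.

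Of the 31 other effectors, 28 were tested in the clone comparison and 22 rose, where 2.59% of all genes tested were called higher. With knockdown in UF1hypo 21 of 31 rose, against 7.39% of all genes tested. Leaving out those under 1 TPM in the baseline group, 15 of 20 and 18 of 28 rose, against 2.16% and 4.48% of all such genes. The 5 with the greatest clone differences were IFITM1, at a log2 difference of 6.59, OAS1 at 5.62, IFIT1 at 4.52, BST2 at 3.90 and ISG15 at 3.43. Apart from OAS1, which was under 1 TPM in HCT116 shScr, their limma adjusted p-values ran from 1.25e-06 to 0.000145. With knockdown in UF1hypo they were OAS2 at 5.10, XAF1 at 4.44, BST2 at 4.28 and RTP4 at 3.79, together with the sensor DHX58 at 3.47. Apart from RTP4, which was under 1 TPM in UF1hypo shScr, their limma adjusted p-values ran from 5.38e-06 to 0.000381. BST2, which tethers budding virions, was thus among the leading genes in both. Among the oligoadenylate synthetase genes OAS2 stood apart. OAS1 was at 65.0 and 60.8 TPM in UF1hypo shScr, 27.7% of its final level, and OAS3 and OASL had 37.8% and 17.7% of theirs. OAS2 was at 1.27 and 0.567 TPM in UF1hypo shScr and at 54.0 and 74.7 TPM in UF1hypo shUHRF1.

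Genes most like the members over the 8 libraries were sought among 1188 protein-coding genes spanning at least 2 on the log2(TPM + 1) scale, by Pearson r, as a description. The mean profile of the 8 already raised members was closest to CMPK2 (r = 0.998), IFIT3 (0.997), UBE2L6 (0.997), TAP1 (0.996) and IRF9 (0.996). CMPK2, a mitochondrial nucleotide kinase, stood at 12.2 and 11.1 TPM in UF1hypo shScr and at 66.2 and 77.2 TPM in UF1hypo shUHRF1. IFI44L was closest to H4C8 (0.993), PLAAT4 (0.992), DAPP1 (0.992), KRTAP4-9 (0.991) and SLFN12 (0.990), all of which were low in UF1hypo shScr and higher in the second UF1hypo shUHRF1 library than in the first. PLAAT4 stood at 5.70 and 11.1 TPM and SLFN12 at 3.76 and 7.09 TPM in those libraries.

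The genes beside the members varied. TMPRSS2 and FAM3B, which flank the MX genes, did not exceed 0.356 TPM in any library, and PTGFR and ADGRL4, which flank the IFI44 genes, did not exceed 0.189 TPM. FGR beside IFI6 did not exceed 0.354 TPM, and PYHIN1 beside IFI16 was listed at 0 throughout. FAM76A, on the other side of IFI6, lay between 4.87 and 7.58 TPM, and RNF144A, on the other side of RSAD2, between 7.14 and 9.62 TPM. VAT1, 151 bases from IFI35, was at 184 and 180.2 TPM in HCT116 shScr and at 240.1 and 176 TPM in UF1hypo shUHRF1, so its groups overlapped. RPL27, a ribosomal protein gene 3781 bases from IFI35 on its other side, was lower where IFI35 was highest, at 1608 and 1748 TPM in UF1hypo shScr and 1225 and 1257 TPM in UF1hypo shUHRF1. IFI27L1, 990 bases from IFI27 and of the same family, was at 14.3 and 18.8 TPM in HCT116 shScr, 28.8 and 23.1 TPM in HCT116 shUHRF1, 40.3 and 41.8 TPM in UF1hypo shScr and 59.2 and 45.7 TPM in UF1hypo shUHRF1. IFI27L2, on the other side of IFI27, was at 54.6 and 49.6 TPM in HCT116 shScr, 109 and 107 TPM in UF1hypo shScr and 131 and 77.5 TPM in UF1hypo shUHRF1. AIM2, the neighbour of IFI16 and also a DNA sensor, was listed at 0 until UF1hypo shUHRF1, where it was at 1.29 and 0.423 TPM. CMPK2 shares 351 exon bases with RSAD2 on the opposite strand, and IFI6 shares 216 with LINC02574 on its own strand. MX1 shares 562 exon bases with TMPRSS2 and 436 with a long noncoding RNA, both on the opposite strand. IFI16 shares 425 exon bases with PYDC5 on the opposite strand, whose level was not analysed here. Whether the reads were counted by strand was not given in the sources used here, so reads in those bases cannot be told apart.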

How the data were processed

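RNA-seq of 8 libraries was analysed. Reads were paired; the authors used Fastp for trimming, HISAT2 (2.0.4, per the submitters' processing notes) for alignment to GRCh38, and StringTie (2.1.4) for gene levels. The deposited tables give coverage (a signal, mean reads per base), FPKM and TPM for each gene. The authors' TPM was used throughout, and their FPKM and coverage, divided by aligned gigabases, as alternatives. No read counts were used, so the depth behind a single gene is unknown. Depth was 5.42 to 7.84 aligned gigabases a library, recovered from coverage and FPKM.

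All 19942 protein-coding genes entered a limma fit (version 3.58.1, R 4.3.3) with a mean-variance trend on log2(TPM + 1), with 4 groups as terms. Genes above 1 TPM in a library of the contrast were tested, adjusted by Benjamini-Hochberg, and called at adjusted p below 0.05 and absolute log2 fold change above 1, the study's thresholds. The script was tested on simulated data. The study's own count model was not run.

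The members and gene lists were chosen with earlier results of these data known, and the choice of members used both UF1hypo contrasts, so members were tested in the HCT116 knockdown alone. Named were the members, UHRF1, the nearest neighbours, up to 5 called pathway genes a direction, by size of change,, and the 5 genes most like each pattern. Other pathway genes named, as examples of their role, were chosen after their values were seen, and 1 listed gene is not reported here by name. Gene positions and GC came from GENCODE 44 (60463 of 60605 identifiers matched) and promoter windows from RefSeq. Alternatives were another pseudocount, filter, unit, scaling, set of libraries, replicate block and leaving each library out. Chosen after seeing the data were coverage per gigabase, a GC correction in 10 bins and crossed blocks.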

Additional observations from a re-analysis of the deposited data

How the results depend on the processing

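The number of members already raised in the clone comparison depended on the scale and on GC correction. The 8 became 9 with pseudocount 0.1 and also after GC correction, and 6 on FPKM and 4 on coverage per gigabase, where the added 1 weighed more. It stayed at 8 when a library was left out. All 243 alternative log2 differences of members in both UF1hypo comparisons were above 0, but the choice of members used these comparisons. The fits on 4 libraries, with other filters or with blocks repeat the main difference by construction. That count is therefore no measure of stability. In the HCT116 knockdown IFI35 ran from -0.2384 to 0.0361 when a library was left out, turning above 0 without the second HCT116 shScr library. Members called there went from 0 to 1 (IFI27) with the 4 libraries alone and with GC correction, and pathway genes from 0 to 1 (TRIM22) with these and with pseudocount 0.1.

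Called genes in the HCT116 knockdown numbered 9 (6 higher). They became 89 (51) with 4 libraries alone, 72 (52) with GC correction, 30 (19) with pseudocount 0.1, 3 (2) with median-ratio scaling, 2 (2) without a TPM filter, 0 (0) on coverage per gigabase and 0 (0) without any single library. For knockdown in UF1hypo, 1162 (1007 higher) became 563 (516) with 4 libraries alone, 749 (615) on FPKM and 496 (425) on coverage. Without single libraries they ran from 655 (591), without the first UF1hypo shScr library, and 775 (705) without the second, to 2255 (1394) without the second UF1hypo shUHRF1 library. The clone comparison's 455 (333 higher) became 241 (191) on coverage and 149 to 190 (122 to 151) without each of its 4 libraries: 149 and 152 without the first and second HCT116 shScr library, 190 and 157 without the first and second UF1hypo shScr library. Pathway genes higher there ran from 21 to 25 when a library was left out, against 31, and in UF1hypo knockdown from 27 to 39, against 33.

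The replicate numbers did not pair the libraries: correlations of same-numbered deviations were 0.0571, -0.404 and 0.0236 for the HCT116 knockdown, UF1hypo knockdown and clone comparison. With the number as a replicate block, calls were 1 (1 higher), 1110 and 369. Crossed blocks gave 1207 in the UF1hypo knockdown. The unknown read depth limits members under 1 TPM.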
